A study of Callithrix jacchus with 3 samples.

Results

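Cohesin, condensin and the DNA-binding protein CTCF fold the chromosomes of the nucleus. Expression of 10 of their genes was examined by RNA sequencing in cells of the common marmoset (Callithrix jacchus), a small New World monkey. The genes were chosen by symbol, and each of the 10 symbols mapped to a single Ensembl gene ID among the 30811 IDs counted. They are SMC3, RAD21, STAG1, NIPBL and WAPL of the cohesin system, CTCF, and SMC2, SMC4, NCAPD2 and NCAPG of condensin. The study is titled as an attempt to derive extended pluripotent stem cells, which in other species are described as able to form embryonic and extraembryonic tissues, from marmoset embryonic stem cells. Its 3 libraries, here replicates 1, 2 and 3, form 1 group labelled as extended pluripotent stem cells and called EPSC-like by the submitters. The labels give no donor animal, sex, passage or culture medium, no treatment, and no parental or control cells. The library titles share the prefix No40, whose meaning the labels do not give, and differ in their final number alone, so the libraries may share a line, and nothing says that they came from separate cultures. The p-values below therefore measure only the spread between these libraries, or between their reads, which may be technical.

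Cohesin is a ring made of a pair of SMC proteins and the kleisin RAD21. It holds sister chromatids together after replication, and in interphase it extrudes chromatin loops that stall at CTCF bound to DNA. Condensin is a related ring that compacts chromosomes in mitosis. Both are needed by any dividing cell, and in pluripotent cells of mouse and human cohesin and CTCF are known to shape the contacts of enhancers and promoters.

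Total counts were 40593244 in replicate 3, 55224475 in replicate 2 and 52327369 in replicate 1. Of 14 pluripotent cell markers looked for, 10 matched a gene ID, and their mean levels ran from 109 to 2688 CPM (counts per 1000000 counts). Their sum was 7068 CPM in replicate 3, against 7564 and 7326 CPM in replicates 2 and 1, but single markers split. LIN28A had 350.3 CPM in replicate 3, against 725 and 674 CPM in replicates 2 and 1, LIN28B had 469.95 CPM, against 774 and 742 CPM, and SALL4 had 58.5 CPM, against 134 and 135 CPM. POU5F1 had 1185 CPM in replicate 3, against 972 and 974 CPM in replicates 2 and 1, and EPCAM had 1032 CPM, against 799.5 and 804 CPM. Replicate 3 stood apart from the others. Summed over the matched markers, fibroblast or feeder cell genes (6 of 8 matched, all at a mean of at least 1 CPM) gave 478 CPM in replicate 3, against 638 and 682 CPM in replicates 2 and 1. Most of this was COL1A1 (404, 516 and 546 CPM in replicates 3, 2 and 1), though each matched gene was lowest in replicate 3. Extraembryonic genes (4 of 7 matched, AFP at 0) gave 2.94 CPM in replicate 3, against 20.6 and 20.1 CPM in replicates 2 and 1. Endothelial or blood cell genes (6 of 6 matched) gave 70.9 CPM in replicate 3, against 127 and 122 CPM in replicates 2 and 1, nearly all of it PECAM1, while PTPRC averaged 0.037 CPM. Neural genes (4 of 6 matched) gave 23.7, 24.6 and 26.3 CPM in replicates 3, 2 and 1, most of it RBFOX3 (19.9, 17.1 and 19.3 CPM). MAP2 was lower in replicate 3, at 1.74 CPM, against 5.98 and 5.28 CPM in replicates 2 and 1. PAX6 had 1.99, 1.47 and 1.68 CPM in replicates 3, 2 and 1. The part of these markers and cell types in the differences between libraries given below was not tested. In bulk RNA, fewer cells of a type and less RNA per cell cannot be told apart.

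All 10 genes were expressed well above the test level. Each was called above 1 CPM (quasi-likelihood test of edgeR, adjusted p between 1.99e-14 and 7.79e-12), against 56% of the 23432 genes tested. All 10 were also called above 10 CPM, against 37.6% of genes. The median of their mean levels was 241.9 CPM, and that over all genes tested was 3.26 CPM. CPM is not corrected for gene length, and lengths of the transcripts counted were not used here, so the levels of different members are not ranked against each other. Every member had at least 2479 counts in each library.

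**Figure D1:**
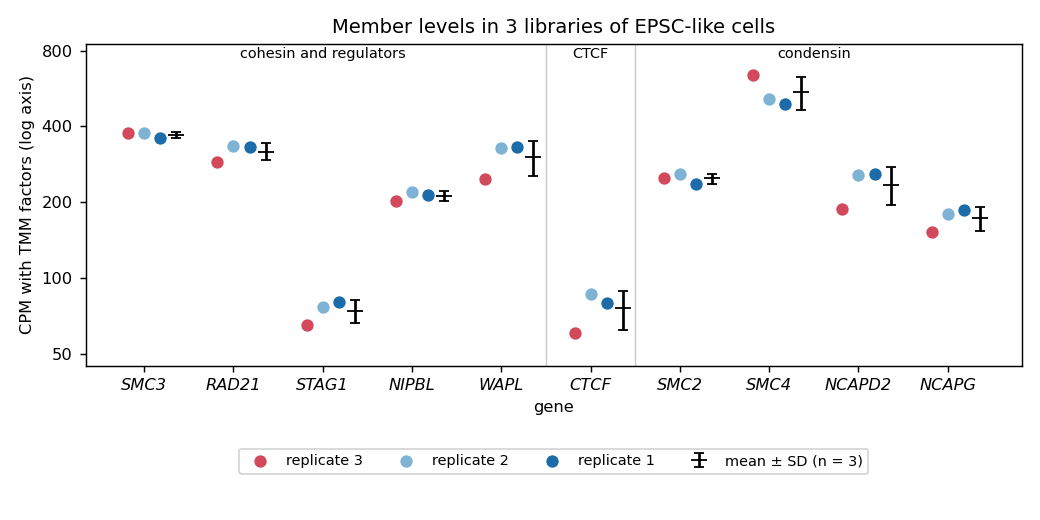
CPM on a log axis for each of the 10 genes, with a point for each library (replicates 3, 2 and 1 from left to right) and the mean ± SD of the 3 libraries. All but SMC3, SMC2 and SMC4 lie lower in replicate 3 than in both other libraries, SMC4 lies higher at 643 CPM, and the points of SMC3 and SMC2 lie close together.

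SMC3, the SMC subunit that cohesin shares between its mitotic and meiotic forms (ENSCJAG00000018717), had 377.5, 376 and 358 CPM in replicates 3, 2 and 1, a mean of 371 ± 10.7 CPM (SD, n = 3). The 3 values lay within a coefficient of variation of 2.89%, the smallest of the 10 members. Its kleisin partner RAD21 (ENSCJAG00000005844), which separase cuts at anaphase to release the sister chromatids, had 289, 334 and 330.4 CPM in replicates 3, 2 and 1, a mean of 318 ± 24.7 CPM. RAD21 was low in replicate 3 while its values in replicates 2 and 1 differed by about 1%. STAG1 (ENSCJAG00000002501), which encodes a HEAT-repeat subunit that binds the kleisin, had 65.4, 76.5 and 80.1 CPM in replicates 3, 2 and 1, a mean of 74.0 ± 7.67 CPM, and was again lowest in replicate 3.

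The loader and the release factor of cohesin differed in how far they moved. NIPBL (ENSCJAG00000018052), which loads cohesin and drives loop extrusion, had 202, 219.97 and 214 CPM in replicates 3, 2 and 1, a mean of 212 ± 9.39 CPM. WAPL (ENSCJAG00000003491), which opens the ring and takes cohesin off chromatin, had 247, 329 and 332 CPM in replicates 3, 2 and 1, a mean of 303 ± 48.2 CPM. Replicates 1 and 2 were alike for WAPL, and replicate 3 was about 25% below each of them. CTCF (ENSCJAG00000016139), the zinc finger protein at which extruding cohesin stalls, had 60.8, 86.8 and 79.7 CPM in replicates 3, 2 and 1, a mean of 75.8 ± 13.5 CPM. Its coefficient of variation of 17.8% was the largest of the 10 members, with replicate 3 low and replicates 1 and 2 also apart.

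The condensin genes did not move as a unit. SMC2 (ENSCJAG00000016524), the SMC subunit common to condensin I and II, had 249, 259.9 and 237 CPM in replicates 3, 2 and 1, a mean of 249 ± 11.3 CPM. Its partner SMC4 (ENSCJAG00000002974), with which it forms the arms of the ring, had 643, 513 and 491 CPM in replicates 3, 2 and 1, a mean of 549 ± 82.5 CPM. SMC4 was the only member whose value in replicate 3 lay well above both other libraries. The HEAT-repeat subunit NCAPD2 of condensin I (ENSCJAG00000007561) had 189, 256 and 259.9 CPM in replicates 3, 2 and 1, a mean of 235 ± 40.04 CPM. NCAPG (ENSCJAG00000012738), the other HEAT-repeat subunit of condensin I, had 152, 179.9 and 186 CPM in replicates 3, 2 and 1, a mean of 173 ± 18.3 CPM. Both were lowest in replicate 3, opposite to SMC4.

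The reads of the libraries were then compared in pairs by an exact conditional binomial test per gene, with Benjamini-Hochberg adjustment over the 23432 genes. This test compares libraries and not conditions, and covers counting error only. Without molecular identifiers, repeated reads of a molecule cannot be told from separate molecules, and the true error may be larger. All 10 members differed between replicates 3 and 1, 7 lower and 3 higher in replicate 3. Over all genes tested 46.7% differed, 25.2% lower and 21.5% higher. Deeply counted genes pass this test more often, however. Among the 2786 genes whose mean CPM lay between those of the lowest and the highest member, 87.8% differed, 48.5% lower and 39.3% higher, so 10 of 10 is near that background.

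The sizes of the differences were modest. NCAPD2 had the largest fall, with a log2 ratio of −0.46 for replicate 3 over replicate 1 (95% counting interval −0.50 to −0.42, adjusted p = 2.49e-112), or a change of −27.3%. WAPL followed at −0.43 (−0.46 to −0.39, adjusted p = 1.21e-124) and CTCF at −0.39 (−0.46 to −0.32, adjusted p = 3.23e-26). NCAPG and STAG1 both stood at −0.29, RAD21 at −0.19 and NIPBL at −0.09. SMC4 was higher in replicate 3 by 0.39 (0.37 to 0.42, adjusted p = 1.61e-206), or 1.31-fold. SMC3 and SMC2 were higher by 0.08 and 0.07, about 5% each. No member passed both the test and a 1.5-fold difference, which 16.9% of all genes tested and 9.83% of the 2786 genes of like level did. None did so in the other pairs either, where 17.5% (replicate 3 over replicate 2) and 1.24% (replicate 2 over replicate 1) of all genes tested did. The share among genes of like level was not computed for those pairs.

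Replicate 3 over replicate 2 gave 8 members lower, 1 higher and 1 not distinguished, against 25.4% of all genes tested lower and 22% higher. In the 2786 genes of like level these shares were 49.8% and 38.3%. This comparison shares replicate 3 with the first pair, so it is no independent count. CTCF was lowest here, at −0.51 (−0.58 to −0.44, adjusted p = 2.91e-47). NCAPD2 stood at −0.44, WAPL at −0.41, NCAPG at −0.25, STAG1 at −0.23, RAD21 at −0.21 and NIPBL at −0.13. SMC4 was again higher, at 0.33 (0.30 to 0.35, adjusted p = 2.62e-151). SMC2 fell by 0.06 (adjusted p = 0.00311), whereas it was higher when set against replicate 1. SMC3 was not distinguished, at 0.01 (−0.02 to 0.04, adjusted p = 0.854).

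**Figure D2:**
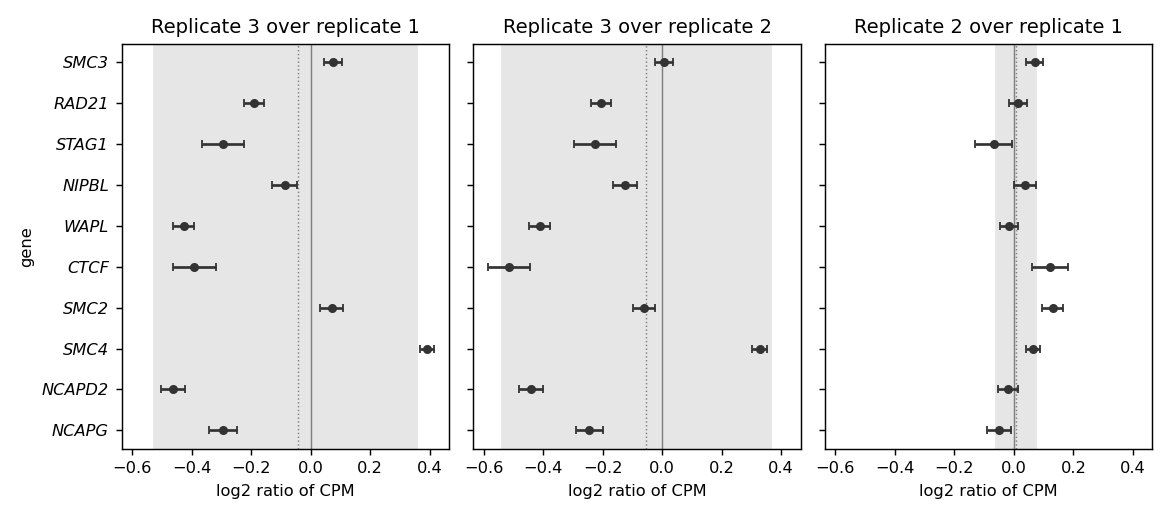
Log2 ratios of CPM for the 10 genes in each pair of libraries, with 95% counting intervals. The grey band spans the 10th to 90th percentile of the 2786 genes of like mean CPM and the dotted line their median. Only SMC4 lies outside the band for replicate 3 over replicate 1, at 0.39, and CTCF and SMC2 lie above it for replicate 2 over replicate 1, at 0.12 and 0.13, with STAG1 just below it at −0.07.

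The median log2 ratio of the members was −0.24 for replicate 3 over replicate 1 and −0.22 for replicate 3 over replicate 2. Over all genes tested the medians were 0.03 and 0.04, and over the 2786 genes of like level they were −0.04 and −0.05. In the genes of like level the 10th and 90th percentiles for replicate 3 over replicate 1 were −0.52 and 0.36. NCAPD2, the lowest member, stood at percentile 13.4 of these genes and SMC4 at percentile 92.6. The median coefficient of variation was 10.5% for the members and 9.96% for the genes of like level.

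Replicates 2 and 1 were far closer. Of the 10 members, 4 were higher in replicate 2 and none was lower, against 3.85% and 3.29% of all genes tested. Among the genes of like level 12.5% were higher and 7.32% lower. The 4 were SMC2 at 0.13 (0.10 to 0.17, adjusted p = 4.1e-11), CTCF at 0.12 (adjusted p = 0.00258), SMC3 at 0.07 (adjusted p = 0.00014) and SMC4 at 0.06 (adjusted p = 3.26e-05). SMC2 and CTCF stood at percentiles 98.3 and 98.0 of the genes of like level in this pair. The other 6 members lay between −0.07 and 0.04. Should each fragment have been counted at both of its ends, the counts would be too high by a factor of 2, and after halving them only SMC2 and SMC4 of these 4 passed.

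Ratios between partner genes within a library are free of library scaling. Their absolute size still holds gene length, so only their differences between libraries are read here. SMC4 over SMC2 was 2.58 in replicate 3, against 1.97 and 2.07 in replicates 2 and 1. SMC4 over NCAPD2 was 3.41 in replicate 3, against 2.0 and 1.89 in replicates 2 and 1, a difference of 0.77 and 0.85 log2 units. This was the widest divergence among the 10 ratios computed. It restates the single-gene values, as SMC4 had the largest rise and NCAPD2 the largest fall of the members for replicate 3 over replicate 1. NCAPD2 over NCAPG, both of condensin I, was 1.24 in replicate 3, against 1.42 and 1.40 in replicates 2 and 1.

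The cohesin ratios were compared between libraries in the same way. SMC3 over RAD21 was 1.30 in replicate 3, against 1.13 and 1.08 in replicates 2 and 1. SMC3 over SMC1A, the other SMC subunit of the mitotic ring, was 2.40 in replicate 3, against 1.81 and 1.70 in replicates 2 and 1, a difference of 0.41 and 0.50 log2 units, where SMC4 over SMC2 differed by 0.39 and 0.32. STAG1 over STAG2, which take the same place in different cohesin complexes, was 0.449 in replicate 3, against 0.389 and 0.427 in replicates 2 and 1. Its log2 difference of 0.07 for replicate 3 over replicate 1 was smaller in size than the −0.13 for replicate 2 over replicate 1. WAPL over NIPBL was 1.23 in replicate 3, against 1.496 and 1.55 in replicates 2 and 1. CTCF over RAD21 was 0.21 in replicate 3, against 0.26 and 0.241 in replicates 2 and 1. These ratios have no test over samples and no counting interval.

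**Figure D3:**
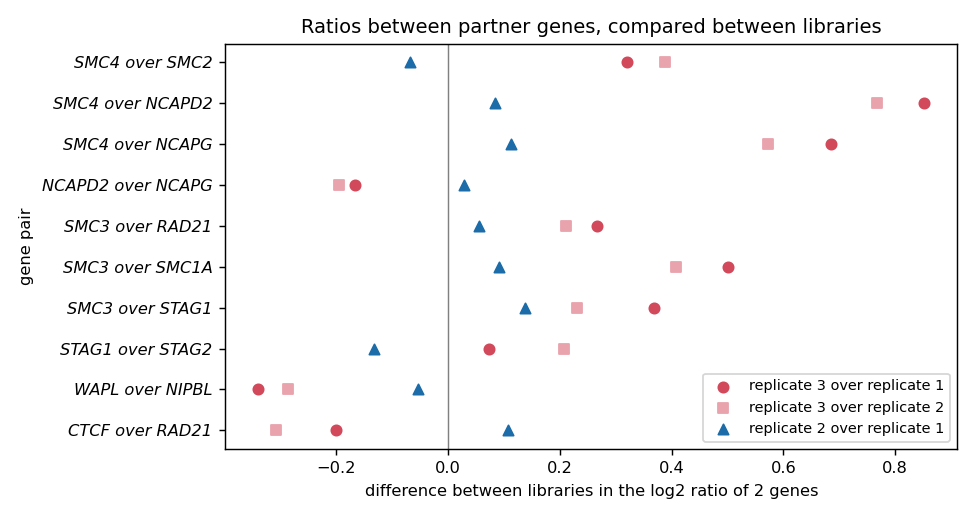
Difference between 2 libraries in the log2 CPM ratio of 2 genes, for 10 gene pairs, with a symbol for each pair of libraries. SMC4 over NCAPD2 lies farthest from 0, at 0.85 and 0.77 for replicate 3 over replicates 1 and 2, while replicate 2 over replicate 1 stays between −0.13 and 0.14 for all 10 gene pairs.

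Other genes of the same machinery were counted from 6 lists of 54 symbols, of which 48 matched 49 gene IDs. KIF4A, a chromokinesin gene, matched a pair of IDs, so its level is uncertain. Of the 49, 48 were above 1 CPM, against 56% of all genes tested. CTCFL was below 1 CPM, as were 37.8% of all genes tested. For replicate 3 over replicate 1, 30 were lower, 9 higher and 10 not distinguished, with a median log2 ratio of −0.22, beside 0.03 over all genes tested. The shares over all genes tested were 25.2% lower and 21.5% higher, and over the 2786 genes of like level to the members 48.5% and 39.3%. The shares over all genes tested apply to each list below. Many listed genes lay outside the members' range of mean CPM (74.0 to 549 CPM). No share at like level was computed for them.

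Of 6 other cohesin subunit genes, all matched and above 1 CPM, 2 were lower, 1 higher and 3 not distinguished in replicate 3 over replicate 1. The remaining subunits of mitotic cohesin were the lower ones. SMC1A had 157, 208 and 211 CPM in replicates 3, 2 and 1, and STAG2 had 146, 197 and 188 CPM (log2 ratios over replicate 1 of −0.42 and −0.37, adjusted p = 1.46e-78 and 1.85e-53). The meiotic subunits were counted at a low level. SMC1B averaged 2.64 ± 0.36 CPM, STAG3 2.48 ± 0.62 CPM and RAD21L1, a meiotic kleisin, 1.41 ± 0.35 CPM (SD, n = 3). All 3 were called above 1 CPM (adjusted p = 5.92e-05, 0.000237 and 0.0479), and all 3 calls were lost with DESeq2 (adjusted p = 0.112, 0.151 and 0.678). The call of RAD21L1 was also lost in edgeR without replicate 1 (adjusted p = 0.366), with filterByExpr (0.0568) and with replicates 1 and 2 summed (0.12). The meiotic kleisin gene REC8 was higher in replicate 3, at 11.4 CPM, against 5.95 and 5.83 CPM in replicates 2 and 1 (log2 ratio over replicate 1 of 0.96, adjusted p = 4.76e-19).

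Of 16 cohesin regulators, 14 matched and all 14 were above 1 CPM. MAU2, whose product is the partner of NIPBL, and CHTF8 matched no gene ID. For replicate 3 over replicate 1, 6 were lower, 5 higher and 3 not distinguished, with a median log2 ratio of −0.11. PDS5A and PDS5B, which help WAPL and hold acetylated cohesin, fell by 0.37 each on the log2 scale. CDCA5, which encodes the WAPL antagonist sororin, fell by 0.40 (57.5 CPM in replicate 3, against 72.3 and 75.8 CPM in replicates 2 and 1). The acetyltransferase gene ESCO1 fell by 0.30, while ESCO2, which acts in S phase, was not distinguished at −0.08 (adjusted p = 0.389). ESPL1, which encodes separase, fell by 0.27, and PTTG1, which encodes its inhibitor securin, was higher by 0.18.

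Genes that guard centromeric cohesin were higher in replicate 3 than in replicate 1, SGO1 by 0.22 and SGO2 by 0.27. SGO2 did not differ between replicates 3 and 2 by the test (0.01, adjusted p = 0.865). CHTF18, of the alternative clamp loader that aids cohesion at the replication fork, had 172, 116 and 114 CPM in replicates 3, 2 and 1, a log2 ratio over replicate 1 of 0.60 (adjusted p = 4.3e-120). The cohesion helicase gene DDX11 was higher by 0.32.

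All 5 genes of the remaining condensin list matched and were above 1 CPM, and 4 were lower and none higher in replicate 3 than in replicate 1. NCAPG2 of condensin II had 43.8, 74.9 and 73.6 CPM in replicates 3, 2 and 1 (log2 ratio over replicate 1 of −0.75, adjusted p = 1.57e-75). NCAPD3 of condensin II stood at −0.47 and the condensin I kleisin gene NCAPH at −0.15, both lower. NCAPH2, the condensin II kleisin gene, was not distinguished at −0.02 (adjusted p = 0.878). MCPH1, whose product restrains condensin II, fell by 0.26 (adjusted p = 0.00566, and 0.079 with counts halved), and stood at −0.18 and was not distinguished when set against replicate 2 (adjusted p = 0.0669). Among the condensin subunit genes examined, SMC4 and SMC2 were the only ones called higher in replicate 3 than in replicate 1, and SMC4 the only one called higher than in replicate 2.

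Of the SMC5/6 and SMCHD1 list, 6 of 9 symbols matched and all 6 were above 1 CPM, with 4 lower and 2 higher in replicate 3 over replicate 1. SMCHD1 itself, NSMCE3 and NSMCE4A matched no gene ID, so they were not measured here. SMC5 and SMC6, the SMC pair of a ring that acts in DNA repair, fell by 0.22 each on the log2 scale in replicate 3 over replicate 1. SLF2, which recruits this complex, had 7.63 CPM in replicate 3, against 22.02 and 21.4 CPM in replicates 2 and 1 (log2 ratio over replicate 1 of −1.49, adjusted p = 2.56e-67). Its partner gene SLF1 fell by 0.50. The SUMO ligase gene NSMCE2 was higher by 0.32. NSMCE1 stood at 0.12 (adjusted p = 0.0359, and 0.208 with counts halved).

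Of 8 genes for architectural proteins beside CTCF, 7 matched and YY1 did not. CTCFL, the germline paralogue of CTCF, had 7, 17 and 19 counts in replicates 3, 2 and 1 and was below 1 CPM at 0.28 ± 0.10 CPM (SD, n = 3, adjusted p = 0.00399, edgeR), a call lost with DESeq2 (adjusted p = 0.468). For replicate 3 over replicate 1, 5 of the 7 were lower, among them the zinc finger genes VEZF1, MAZ and ZNF143 at −0.39, −0.34 and −0.22. The looping cofactor gene LDB1 was not distinguished, at −0.03 (adjusted p = 0.572).

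Of 11 IDs for mitotic chromosome structure, 9 were lower, 1 higher and 1 not distinguished in replicate 3 over replicate 1. Both KIF4A IDs are among the 9, at −0.93, the lowest of the list, and −0.48, a call lost with counts halved. TOP2A, the topoisomerase II gene of dividing cells, stood at −0.28, MKI67 at −0.40, and the mitotic kinase genes PLK1 and BUB1 at −0.34 and −0.39, all lower. The mitotic cyclin gene CCNB1 fell by 0.07 (adjusted p = 0.000222), CDK1 was not distinguished at 0.00 (adjusted p = 1), and AURKB stood at 0.06 (adjusted p = 0.0438, and 0.226 with counts halved). Most of these genes were lower in replicate 3 alongside NCAPD2 and NCAPG, and their part in the condensin values was not tested.

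**Figure D4:**
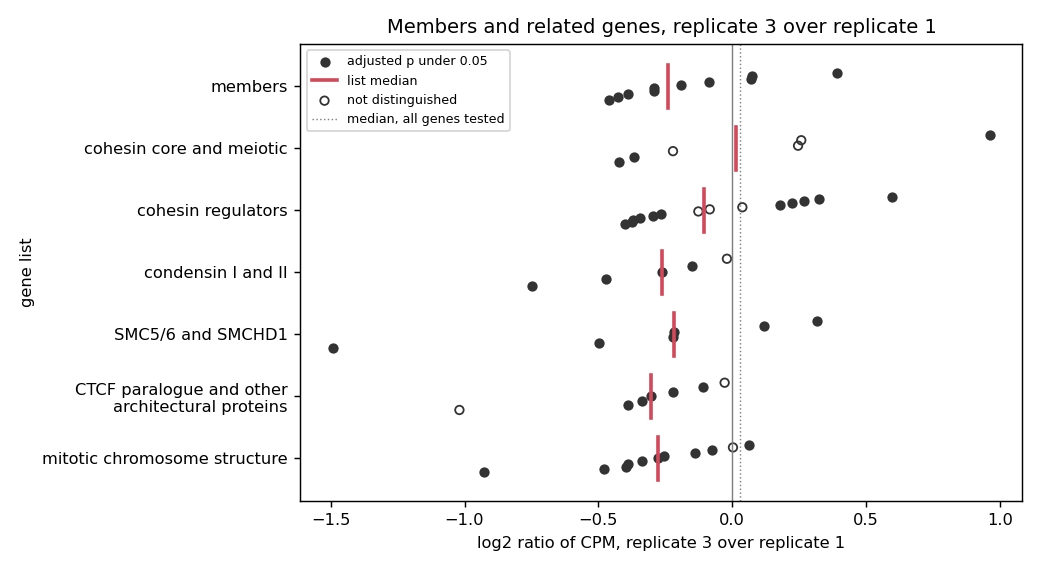
Log2 ratio of CPM for replicate 3 over replicate 1, with a point for each gene of the 10 members and of the 6 other lists, filled where the adjusted p was under 0.05, and a red bar at each list median. The members' median lies at −0.24, those of the other lists run from −0.30 (CTCF paralogue and other architectural proteins) to −0.11 (cohesin regulators) and 0.01 (cohesin core and meiotic), and SLF2 and REC8 lie at the ends, at −1.49 and 0.96.

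The genes whose pattern over the 3 libraries was closest to the mean pattern of the members were CDH3, PACS2, ANKRD46, NEDD1 and PIANP. Likeness was the Euclidean distance between log2 CPM values centred on each gene's mean, over 3 libraries, among 7165 genes with a symbol and a mean of at least 10 CPM. The distances ran from 0.0012 to 0.0057. At the much wider limit of 0.1, 1323 of the genes were taken in, so with 3 libraries a loosely similar pattern is common. The members themselves lay farther away, from 0.021 for RAD21 to 0.44 for SMC4, with 103 other genes closer than RAD21 and 5788 closer than SMC4.

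In the RefSeq annotation of the assembly calJac240_pri, which may not be the build the counts used, 8 of the 10 members overlap another annotated gene, and 3 of them a protein-coding one. NCAPG overlaps LCORL, which had 6.33, 7.98 and 8.58 CPM in replicates 3, 2 and 1. RAD21 overlaps AARD and WAPL overlaps an uncharacterized locus, for which no count could be matched. CTCF and SMC2 overlap none. The sources used here name neither a strand setting nor a rule for reads with several matches, so reads of overlapping genes or of close copies may be counted to a member or lost from it.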

How the data were processed

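RNA was measured in 3 libraries of 1 group. The authors deposited raw counts, not normalized, in 1 file per library with Ensembl gene IDs. Per the submitters' processing notes, the tools were featureCounts 1.5.2, STAR 2.5.3a and Trim Galore 0.4.0. Genome build, annotation and strand setting: not given in the sources used here. Symbols came from a table of gene IDs, which named 12660 of the 30811 IDs. The 10 members and the lists were chosen with earlier results of these data known. The text names all members, listed genes by role, and the 5 genes nearest in pattern.

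CPM were computed with TMM factors (edgeR 4.0.16, limma 3.58.1, R 4.3.3). Each of the 23432 genes with a count was tested against 1 CPM, two-sided, in an edgeR quasi-likelihood model with an intercept alone and trended dispersion, with its F statistic computed from deviances, with a Poisson lower bound on p. Pairs of libraries were compared by two-sided exact conditional binomial tests on TMM-scaled library sizes (SciPy 1.17.1). A prior count of 0.5 was used in log2 ratios, and exact (Clopper-Pearson) 95% intervals cover counting error only. Benjamini-Hochberg adjustment ran over all 23432 genes, with a threshold of 0.05. Both tests were run on simulated counts, with counting error alone for the pair test and a single fixed dispersion for the level test. Neither check covers the spread between the real libraries. The 3 counts taken as the limit of detection equal 0.0736, 0.0546 and 0.0573 CPM in replicates 3, 2 and 1. Alternatives were library totals, size factors and a test from DESeq2 1.42.0, filterByExpr, halved counts (rounded down), a 1.5-fold minimum, a level of 10 CPM, and omitted or summed libraries. Figures used matplotlib 3.10.9.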

Additional observations from a re-analysis of the deposited data

How the results depend on the processing

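All 10 members stayed above 1 CPM under each of the 9 alternatives run, without each library in turn included, and the median of their mean levels lay between 234 and 253 CPM when a library was left out. Fits on 2 libraries ignore a gene's own spread. Library totals, DESeq2 size factors and filterByExpr changed no member's call in any pair of libraries. When a 1.5-fold difference was required as well, 0 members passed in each of the 3 pairs, by construction since no member differed so far. For comparison, the exact binomial test without that minimum called 10, 9 and 4 members for replicate 3 over 1, 3 over 2 and 2 over 1. With counts halved, 10, 8 and 2 members passed, as fewer counts widen the error: SMC2 was lost for replicate 3 over 2 (adjusted p = 0.0597), and SMC3 and CTCF for replicate 2 over 1 (adjusted p = 0.0627 and 0.207). Alternatives for the listed genes beside the members were added after seeing the data. Of these genes, 48 were above 1 CPM, and between 42 (at a level of 10 CPM) and 48 under the alternatives. With counts halved, 5 of their calls for replicate 3 over 1 were lost, those of MCPH1, NSMCE1, AURKB, PATZ1 (adjusted p = 0.124) and the KIF4A ID of fewer counts (adjusted p = 0.15). CDK1 was lower in replicate 3 than in replicate 2 (log2 ratio −0.052, adjusted p = 0.0274, exact binomial test). It was not distinguished with library totals or size factors (−0.039 with each, adjusted p = 0.11 and 0.115), where only the scaling was changed. No paired analysis was possible because the design has a single group. Levels per length were not run, as no transcript lengths were at hand. Depth limits CTCFL and the meiotic genes, of which the 4 lowest (CTCFL, SMC1B, STAG3 and RAD21L1) had at most 174 counts in a library.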
